A study of Homo sapiens with 8 samples.

Results

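Neuregulin 1 (NRG1), the receptors EGFR, ERBB2 and ERBB3, the EGFR ligands AREG, EREG, HBEGF, TGFA and BTC, and the receptor inhibitor ERRFI1 were followed on all 8 arrays of a study of HCT116, an established cell line from a human colon cancer. The 10 genes were chosen by name, starting from NRG1, whose P2 effect in these arrays placed it among the genes lowered most by this small molecule, and every probe annotated to them was taken. The annotation named 19 such probes for 9 of the 10 genes, out of 24526 probes for 16922 genes on the array. No probe was annotated to AREG, which is not analysed here.

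The arrays formed 4 groups of 2: p53-/- cells treated with P2 at 25 µM, untreated p53-/- cells, p53+/+ cells treated with P2 at 25 µM, and untreated p53+/+ cells. Both genotypes are labelled as HCT116 cells, so every value comes from a single line. A genotype difference cannot be told apart from any other difference between the p53-/- and p53+/+ cells. The controls are called untreated, with no solvent control named, so an effect of P2 and one of solvent or handling cannot be told apart. No treatment time was given, and the extraction notes speak of frozen tissue although a cell line is named, which was not resolved. The labels do not say that the arrays of a group came from separate cultures, so the p-values reflect only how far these arrays scatter, part of which may be technical. The deleted gene itself is not analysed here, so the genotypes were not checked at that gene.

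ERBB signalling starts when a ligand of the epidermal growth factor family binds a receptor tyrosine kinase and brings receptors together in pairs. EGFR binds ligands such as TGFA, HBEGF, EREG and BTC, ERBB3 and ERBB4 bind neuregulins, and ERBB2 has no known ligand of its own but pairs with the others. Most ligands are made as membrane proteins and cut free by metalloproteases, and the receptors pass the signal to the RAS-ERK and PI3K pathways. EGFR is a drug target in colorectal cancer, and its ligands are made by intestinal epithelium.

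A probe was called detected where its intensity passed a detection p-value under 0.05 against the negative control beads of its array. Each array detected 52.1% to 57.1% of its probes. Of 12 markers of colon epithelium, 8 were detected on all 8 arrays, among them EPCAM, CDH1 and CDX2, while KRT20, VIL1 and CDX1 were detected on none. Of the markers of fibroblasts, leukocytes, endothelium and erythroid cells, few were detected on every array, namely 1 of 8 (COL1A1), 2 of 7 (CD68 and LYZ), 1 of 5 (PECAM1) and 1 of 3 (HBA2). PTPRC was detected on at most 1 array. On p53-/- untreated replicate 1, 215 probes read at least 1 log2 lower than on replicate 2. None of the members' tested probes was among them, with gaps between these replicates of -0.24 to 0.17 log2.

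Of the 19 probes, 12 were detected on at least 2 arrays and were tested, and these cover all 9 genes with a probe. The other 7 were 3 of NRG1, 2 of EGFR and 2 of ERBB2, of which 1 ERBB2 probe (ILMN_1728761) was designed to NM_004448, the transcript of the tested ERBB2 probe, and the rest to other transcripts. They were detected on no array, with raw intensities of 33.7 to 50.4 and detection p-values of 0.10032 or more. NRG1 was thus read by ILMN_1737252, designed to NM_013958, while the NRG1 probes for NM_013959, NM_013960 and NM_013962 were not above background. All log2 values below are background-corrected, quantile-normalized log2 intensities. The level of a probe depends on its sequence, so levels are compared between arrays and not between probes.

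NRG1 encodes a ligand of ERBB3 and ERBB4. It read 5.20 and 5.50 log2 in P2-treated p53-/- cells, against 8.07 and 8.20 in untreated p53-/- cells. In p53+/+ cells it read 5.25 and 5.11 log2 with P2, against 7.99 and 8.35 without. All 4 treated arrays thus lay below all 4 untreated arrays, and the probe was detected on all 8. The raw intensities were 53.5 to 74.6 with P2 and 271.4 to 377.1 without. The fitted difference was -2.79 ± 0.15 log2 in p53-/- cells (SE, n = 2 arrays per group), a 6.90-fold lower level, and -2.99 ± 0.15 log2 in p53+/+ cells, a 7.93-fold lower level. Ordered by lowering among 10932 genes, each by its brightest tested probe, NRG1 came at rank 4 in p53-/- and at rank 4 in p53+/+ cells. These NRG1 values chose the list and are given without a test. In RNA of a whole culture, fewer cells that make NRG1 and less NRG1 RNA per cell cannot be told apart.

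The treated NRG1 values were close to background, where the size of a difference depends on how background is removed. With an offset of 50 the NRG1 difference was -2.07 log2 in p53-/- and -2.20 log2 in p53+/+ cells, and without background correction it was -2.21 and -2.34 log2. The response in p53-/- cells minus that in p53+/+ cells was 0.20 ± 0.22 log2, with a 95% interval of -0.29 to 0.69.

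**Figure D1:**
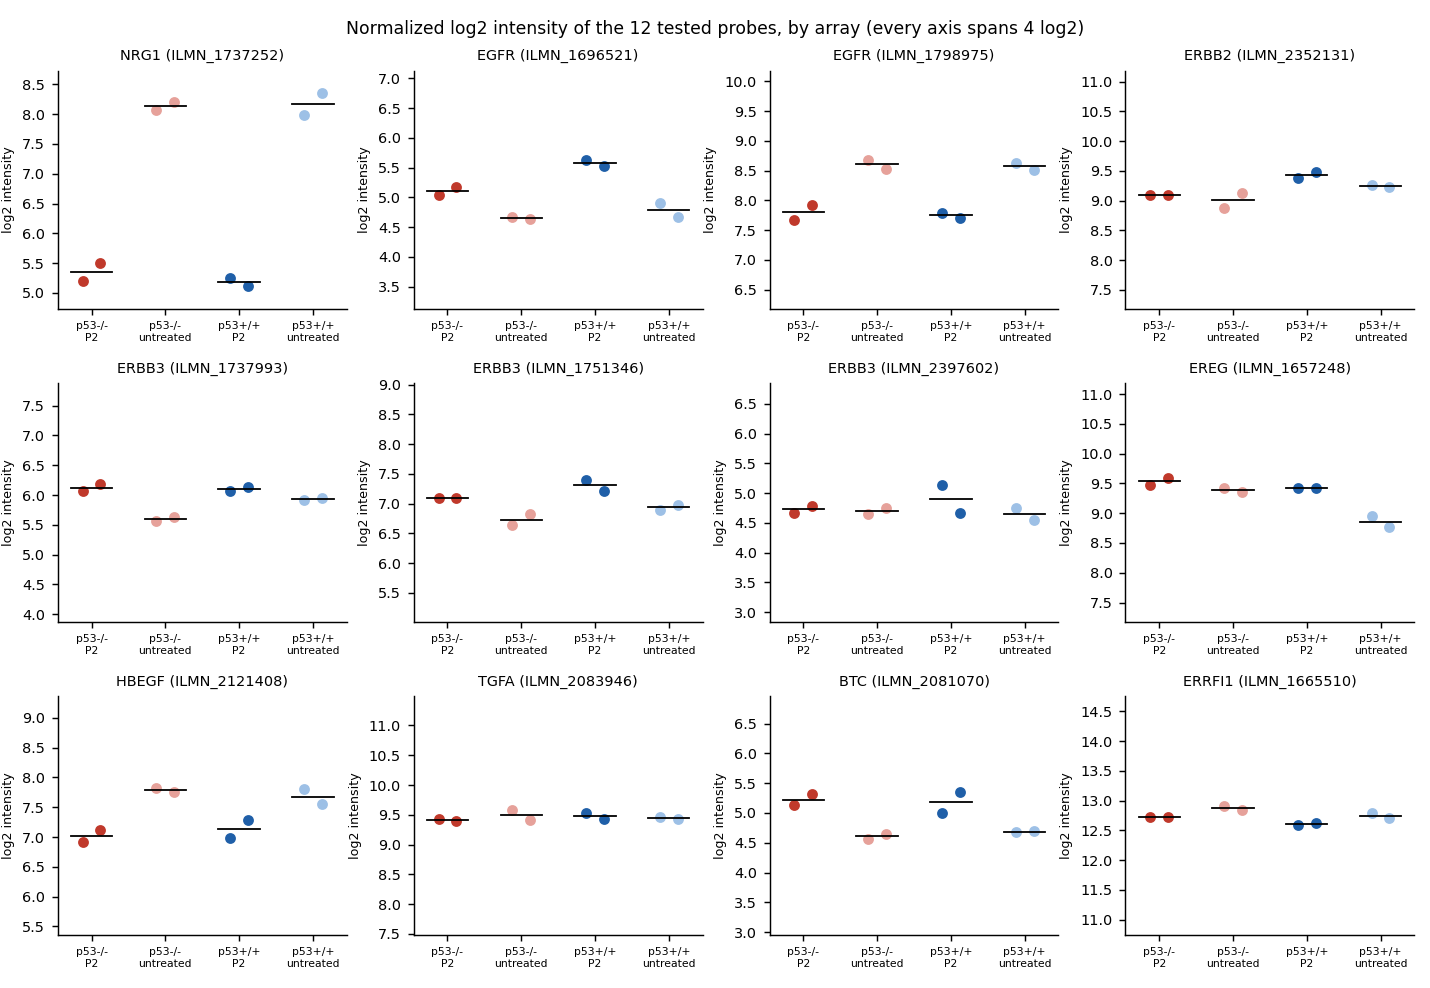
Normalized log2 intensity (vertical axis, each spanning 4 log2) of the 12 tested probes in the 4 groups, with 1 point per array and a bar at the mean of each group. The P2-treated NRG1 arrays lie at 5.11 to 5.50 log2 and the untreated ones at 7.99 to 8.35 log2, while the points of TGFA and ERRFI1 lie close together on all 8 arrays.

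Apart from NRG1, 11 probes of 8 genes were tested by limma, with a Benjamini-Hochberg adjustment over the whole set of 14574 probes. In p53-/- cells P2 changed 6 of the 11 probes, 4 higher and 2 lower, where 25.4% of all tested probes were called (11.8% higher, 13.6% lower). In p53+/+ cells it changed 5 of the 11, 3 higher and 2 lower, where 12% of all tested probes were called (5.71% higher, 6.29% lower). The shares were 54.5% and 45.5% of the members' probes. Without either P2-treated p53-/- array, 3 of the 11 were called in p53-/- cells, with 1544 (replicate 1 left out) and 2125 (replicate 2 left out) calls over all tested probes, against 3706 with all arrays. In p53+/+ cells 2 or 3 of the 11 were called without any 1 p53+/+ array, with 588 to 676 calls over all tested probes, against 1749 with all arrays. The list was drawn up with earlier results of these arrays known and holds several probes of 1 gene, so these shares are a description. The BTC probe and the EGFR probe ILMN_1696521 passed the detection filter only through P2-treated arrays, where they read higher. Their calls are among the higher ones in both genotypes. The median difference of the 11 probes was 0.095 log2 in p53-/- and 0.19 log2 in p53+/+ cells, against -0.042 and -0.0054 log2 over all tested probes.

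**Figure D2:**
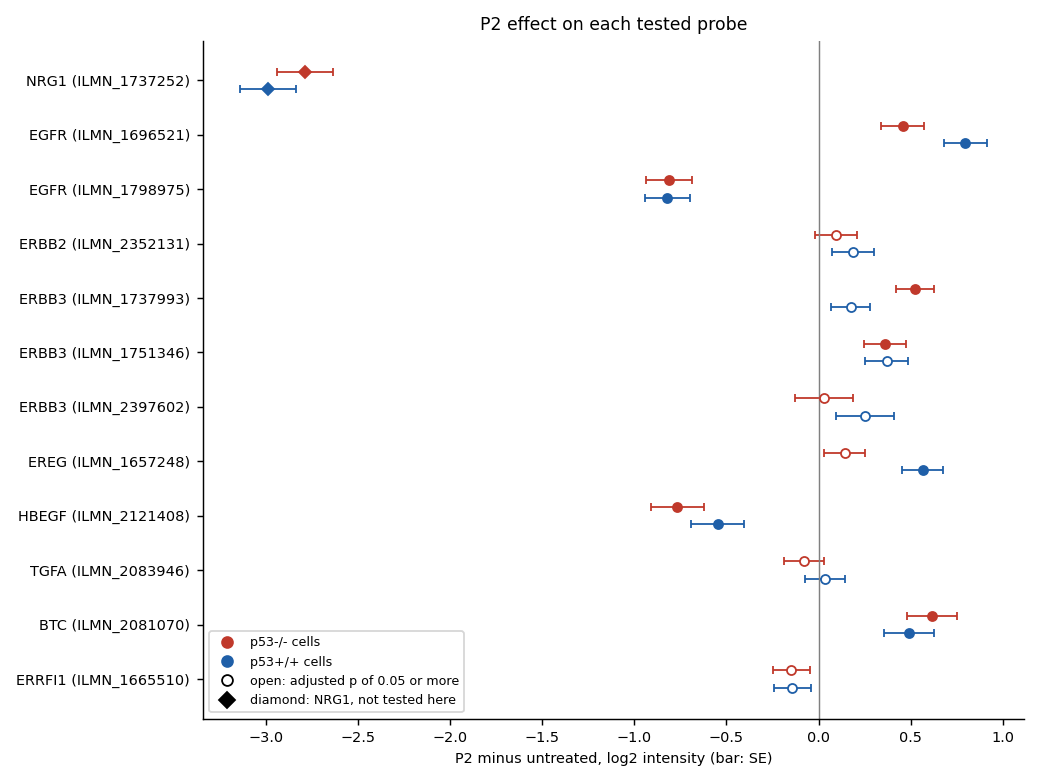
P2 minus untreated in log2 intensity (horizontal axis) for each tested probe in p53-/- cells (red, upper) and p53+/+ cells (blue, lower), with bars of 1 SE and open circles for an adjusted p of 0.05 or more. NRG1 (diamonds, not tested) lies at -2.79 and -2.99 log2, HBEGF and 1 EGFR probe lie below 0 in both genotypes, and BTC and the other EGFR probe lie above 0 in both.

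Among the EGFR ligands, HBEGF fell with P2 in both genotypes, EREG rose in p53+/+ cells, and TGFA passed the test in neither. BTC read higher with P2 in both. Its probe passed the detection filter only through treated arrays, so the BTC calls are a description. The promoters of HBEGF, EREG and BTC are printed here, from RefSeq on GRCh38.p14. Each runs from 250 bases before to 50 after the annotated start on the strand of the gene. HBEGF lies at chr5:140346554-140346853 on the minus strand, EREG at chr4:74364895-74365194 on the plus strand and BTC at chr4:74794474-74794773 on the minus strand. Capitals mark matches, on either strand, to the GC box GGGCGG, the TATA box TATAAA and the CCAAT box. A search for the AP-1 site TGANTCA found none in these windows.
HBEGF: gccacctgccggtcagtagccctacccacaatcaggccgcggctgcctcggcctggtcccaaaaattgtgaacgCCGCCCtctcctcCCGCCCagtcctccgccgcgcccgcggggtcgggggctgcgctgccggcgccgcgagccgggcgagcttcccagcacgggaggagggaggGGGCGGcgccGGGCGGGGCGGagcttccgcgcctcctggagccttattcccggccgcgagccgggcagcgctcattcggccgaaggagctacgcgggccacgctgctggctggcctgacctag
EREG: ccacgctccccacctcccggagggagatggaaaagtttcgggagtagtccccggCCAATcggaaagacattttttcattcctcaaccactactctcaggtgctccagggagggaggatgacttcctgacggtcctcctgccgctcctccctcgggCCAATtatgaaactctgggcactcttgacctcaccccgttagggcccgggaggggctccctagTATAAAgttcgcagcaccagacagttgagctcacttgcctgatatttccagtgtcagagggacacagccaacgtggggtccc
BTC: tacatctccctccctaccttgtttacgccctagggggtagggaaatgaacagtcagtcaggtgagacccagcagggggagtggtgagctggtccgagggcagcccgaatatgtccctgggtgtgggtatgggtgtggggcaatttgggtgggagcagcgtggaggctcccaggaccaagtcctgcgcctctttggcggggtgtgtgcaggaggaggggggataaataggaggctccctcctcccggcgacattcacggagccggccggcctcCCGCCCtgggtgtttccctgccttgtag

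The HBEGF window held 5 GC boxes, of which the last 2 overlap, and was 75.0% G and C. The EREG window held a TATA box at position -32 from the start site and 2 CCAAT boxes, with 57.67% G and C. The BTC window held 1 GC box and was 63.0% G and C. Over 35116 RefSeq promoters of the same length, the median was 58.67% G and C. A GC box occurred in 45.0% of them, the TATA box in 11.5%, the CCAAT box in 34.6% and the AP-1 site in 7.71%. EREG and BTC lie in a cluster of the family on chromosome 4, in the order EPGN, EREG, AREG, BTC. A match to these letters is a description of the sequence and was not tested as a binding site.

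HBEGF (ILMN_2121408), heparin-binding EGF-like growth factor, read 6.91 and 7.12 log2 in P2-treated p53-/- cells, against 7.82 and 7.75 in untreated p53-/- cells. In p53+/+ cells HBEGF read 6.98 and 7.28 log2 with P2, against 7.80 and 7.55 without. Every treated array was below every untreated array. HBEGF fell by 0.77 ± 0.14 log2 in p53-/- cells (1.70-fold, adjusted p = 0.00571, limma) and by 0.55 ± 0.14 log2 in p53+/+ cells (1.46-fold, adjusted p = 0.0394). The call in p53-/- cells was lost without p53-/- P2 replicate 1 (adjusted p = 0.052). That in p53+/+ cells was lost when any 1 of the 4 arrays of p53+/+ cells or either p53-/- P2 array was left out (adjusted p of 0.0525 to 0.223).

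EREG (ILMN_1657248), epiregulin, read 9.43 and 9.42 log2 in P2-treated p53+/+ cells, against 8.96 and 8.77 in untreated p53+/+ cells. In p53-/- cells EREG read 9.48 and 9.59 log2 with P2, against 9.43 and 9.35 without. The 2 untreated p53+/+ arrays were thus the lowest of the 8. EREG rose by 0.57 ± 0.11 log2 in p53+/+ cells (1.48-fold, adjusted p = 0.0127, limma). In p53-/- cells the difference was 0.14 ± 0.11 log2 (adjusted p = 0.375). The response in p53-/- cells minus that in p53+/+ cells was -0.42 ± 0.16 log2, which did not pass the test (adjusted p = 0.239, unadjusted p = 0.0248, limma). The EREG call in p53+/+ cells was lost with median scaling (0.38 log2, adjusted p = 0.294), without p53+/+ P2 replicate 1 (0.0788) or 2 (0.0745), and without p53+/+ untreated replicate 2 (0.0912).

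BTC (ILMN_2081070), betacellulin, was detected on the 4 P2-treated arrays and on none of the 4 untreated arrays. The probe thus passed the detection filter only through treated arrays, where it was high, so its calls are a description. It read 5.13 and 5.31 log2 in P2-treated p53-/- cells, against 4.56 and 4.66 in untreated p53-/- cells, and 5.01 and 5.36 log2 in P2-treated p53+/+ cells, against 4.69 and 4.69 in untreated p53+/+ cells. The untreated BTC values only bound its level, so each fold is computed against the lowest signal that was detected on the untreated arrays. BTC was at least 1.29-fold higher with P2 in p53-/- cells (adjusted p = 0.0117, limma) and at least 1.32-fold higher in p53+/+ cells (adjusted p = 0.0463). The BTC call in p53-/- cells was lost without p53-/- P2 replicate 2 (adjusted p = 0.0742). The call in p53+/+ cells was lost with median scaling, an offset of 50, no background correction or no filter. It was also lost without either p53-/- P2 array, p53+/+ P2 replicate 2 or either untreated p53+/+ array (adjusted p of 0.0648 to 0.246).

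TGFA (ILMN_2083946), transforming growth factor alpha, read 9.44 and 9.40 log2 in P2-treated p53-/- cells, against 9.58 and 9.41 in untreated p53-/- cells. In p53+/+ cells TGFA read 9.53 and 9.43 log2 with P2, against 9.46 and 9.44 without. The groups overlapped in both genotypes. The TGFA difference was -0.08 log2 in p53-/- cells (95% interval -0.32 to 0.17) and 0.04 log2 in p53+/+ cells (-0.21 to 0.28), with adjusted p of 0.637 and 0.866 by limma.

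Among the receptors, EGFR was read by a probe for its full-length transcript, which fell with P2 in both genotypes. An EGFR probe for a truncated transcript read higher with P2 in both. That probe passed the detection filter only through treated arrays, so its calls are a description. ERBB3 rose in p53-/- cells by 2 of its 3 probes, and ERBB2 passed the test in neither genotype. The promoter of EGFR, whose full-length probe fell with P2, is printed in the same way. Of 2 RefSeq entries for EGFR the 5′-most was taken, at chr7:55018767-55019066 on the plus strand of GRCh38.p14, with GC boxes in capitals.
EGFR: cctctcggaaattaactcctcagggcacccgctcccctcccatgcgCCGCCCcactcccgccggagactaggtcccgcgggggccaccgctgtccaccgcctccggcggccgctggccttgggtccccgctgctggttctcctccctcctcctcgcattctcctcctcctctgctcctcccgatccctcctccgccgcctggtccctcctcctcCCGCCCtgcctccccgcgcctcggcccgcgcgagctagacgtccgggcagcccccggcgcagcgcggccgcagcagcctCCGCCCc
The window held 3 GC boxes and none of the other motifs, and it was 75.33% G and C. A link of this sequence to the response was not tested. The promoters of the other members, ERBB3 among them, were not searched.

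The full-length EGFR probe (ILMN_1798975, NM_005228) read 7.67 and 7.92 log2 in P2-treated p53-/- cells, against 8.68 and 8.53 in untreated p53-/- cells. In p53+/+ cells this EGFR probe read 7.79 and 7.71 log2 with P2, against 8.63 and 8.51 without. Every treated array was below every untreated array. EGFR fell by 0.81 ± 0.12 log2 in p53-/- cells (1.76-fold, adjusted p = 0.0023, limma) and by 0.82 ± 0.12 log2 in p53+/+ cells (1.77-fold, adjusted p = 0.00339). Both calls were kept under every alternative setting that was run, with adjusted p of at most 0.0231 in p53-/- and 0.0393 in p53+/+ cells.

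The EGFR probe for NM_201283 (ILMN_1696521), a transcript of a truncated receptor without the kinase domain, went the other way. It read 5.04 and 5.17 log2 in P2-treated p53-/- cells, against 4.67 and 4.64 in untreated p53-/- cells, where it was detected on no array. In p53+/+ cells the truncated EGFR probe read 5.62 and 5.53 log2 with P2, against 4.90 and 4.66 without, of which 1 array detected it. It was at least 1.19-fold higher with P2 in p53-/- cells (adjusted p = 0.0218, limma) and 1.74-fold higher in p53+/+ cells (0.80 ± 0.12 log2, adjusted p = 0.00319). This probe passed the detection filter only through P2-treated arrays, where it was high, so its calls are a description. The p53+/+ call was kept under every alternative setting that was run, with adjusted p of at most 0.0365. A filter of detection p under 0.01 on all 8 arrays left the probe out. The p53-/- call was lost with an offset of 50, with median scaling and when any 1 of the 4 arrays of p53-/- cells was left out (adjusted p of 0.0517 to 0.111). The EGFR probes for NM_201282 and NM_201284, also of truncated receptors, were not detected.

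ERBB3, a neuregulin receptor with a weak kinase, had a probe for its full-length transcript (ILMN_1751346, NM_001982) and 2 for a short secreted form (NM_001005915). The full-length ERBB3 probe read 7.10 and 7.09 log2 in P2-treated p53-/- cells, against 6.64 and 6.82 in untreated p53-/- cells, and 7.39 and 7.22 log2 in P2-treated p53+/+ cells, against 6.89 and 6.99 in untreated p53+/+ cells. The treated arrays were above the untreated ones within each genotype. The ERBB3 difference was 0.36 ± 0.12 log2 in p53-/- cells (1.28-fold, adjusted p = 0.0485, limma) and 0.37 ± 0.12 log2 in p53+/+ cells (adjusted p = 0.071, called under 2 of 19 alternatives with an adjusted p down to 0.0405). The response in p53-/- cells minus that in p53+/+ cells was -0.01 ± 0.16 log2 for this probe. The p53-/- call was lost under 12 of 19 alternatives, among them leaving out any 1 array other than p53-/- untreated replicate 2 (adjusted p of 0.059 to 0.231).

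For the short form, ILMN_1737993 read 6.06 and 6.18 log2 in P2-treated p53-/- cells, against 5.57 and 5.63 in untreated p53-/- cells. In p53+/+ cells this ERBB3 probe read 6.07 and 6.14 log2 with P2, against 5.92 and 5.94 without. The 2 untreated p53-/- arrays were the lowest of the 8. The probe rose by 0.52 ± 0.10 log2 in p53-/- cells (1.44-fold, adjusted p = 0.00724, limma), a call kept under every alternative that was run. A filter of detection p under 0.01 on all 8 arrays left the probe out. In p53+/+ cells it differed by 0.17 ± 0.10 log2 (adjusted p = 0.314). The other short-form ERBB3 probe (ILMN_2397602) was detected on 3 arrays and differed by 0.03 log2 in p53-/- and 0.25 log2 in p53+/+ cells (adjusted p = 0.917 and 0.337).

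ERBB2 (ILMN_2352131), the co-receptor without a ligand of its own, read 9.10 and 9.09 log2 in P2-treated p53-/- cells, against 8.88 and 9.12 in untreated p53-/- cells. In p53+/+ cells ERBB2 read 9.38 and 9.48 log2 with P2, against 9.27 and 9.23 without. The p53-/- groups overlapped and the p53+/+ groups did not. The ERBB2 difference was 0.09 log2 in p53-/- cells (95% interval -0.16 to 0.35, adjusted p = 0.58, limma) and 0.19 log2 in p53+/+ cells (-0.07 to 0.45, adjusted p = 0.331).

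ERRFI1 (ILMN_1665510), an inhibitor that binds the EGFR kinase domain and is induced by growth factors, read 12.72 and 12.72 log2 in P2-treated p53-/- cells, against 12.90 and 12.84 in untreated p53-/- cells. In p53+/+ cells ERRFI1 read 12.60 and 12.62 log2 with P2, against 12.79 and 12.71 without. Treated arrays were below untreated ones in each genotype. The ERRFI1 difference was -0.15 log2 in p53-/- cells (95% interval -0.38 to 0.08) and -0.14 log2 in p53+/+ cells (-0.37 to 0.08), which did not pass the test (adjusted p = 0.307 and 0.403, limma).

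The remaining receptor and ligands of the family could not be compared. The probes for ERBB4, EGF, NRG2 and NRG3 were detected on 0 of the 8 arrays, and that for NRG4 was detected on 1 (with a detection value of 0.04854, just under the threshold). No probe was annotated to EPGN, which is not analysed here.

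By genotype, limma called 0 of the 12 member probes among P2-treated cells, where 0% of all tested probes were called. Among untreated cells it called 0 of 12, where 0.0686% of all tested probes were called (0.0274% higher, 0.0412% lower). It also called 0 of 12 for the difference in response, where 0% of all tested probes were called. At an unadjusted p under 0.05 there were 2 of the 12 (16.7%) in each of the 3 comparisons. The share over all tested probes was 13.8% between genotypes among P2-treated cells, 19.8% among untreated cells and 16.4% for the difference in response, so the members' share was near the background. Among P2-treated cells these 2 were ERBB2, which differed by -0.34 ± 0.11 log2 between p53-/- and p53+/+ cells (adjusted p = 0.256), and the truncated EGFR probe, which differed by -0.47 ± 0.12 log2 (adjusted p = 0.176). Among untreated cells they were EREG and the short-form ERBB3 probe ILMN_1737993, and the same 2 were those of the difference in response.

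EREG had the largest genotype difference of the members among untreated cells. It read 9.43 and 9.35 log2 in untreated p53-/- cells, against 8.96 and 8.77 in untreated p53+/+ cells, and the groups did not overlap. This EREG difference of 0.53 ± 0.11 log2 (1.44-fold) had an adjusted p of 0.0724 by limma, and it passed the threshold under 5 of the alternatives, with adjusted p of 0.0273 to 0.0443. Calls between untreated genotypes over all tested probes were also more under such alternatives. They were 335 without background correction and 187 of 9198 with detection p under 0.01 on all 8 arrays, against 10 in the main fit. Without p53-/- untreated replicate 2 the EREG difference was 0.57 log2. With P2 the EREG difference between p53-/- and p53+/+ cells was 0.11 ± 0.11 log2 (adjusted p = 0.708). The ERBB3 probe ILMN_1737993 differed by -0.33 ± 0.10 log2 among untreated cells (adjusted p = 0.128) and by 0.02 ± 0.10 log2 among treated cells (adjusted p = 0.964). NRG1 differed between p53-/- and p53+/+ cells by -0.03 ± 0.15 log2 untreated (95% interval -0.38 to 0.31, adjusted p = 0.934) and by 0.17 ± 0.15 log2 with P2 (-0.18 to 0.51, adjusted p = 0.669).

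**Figure D3:**
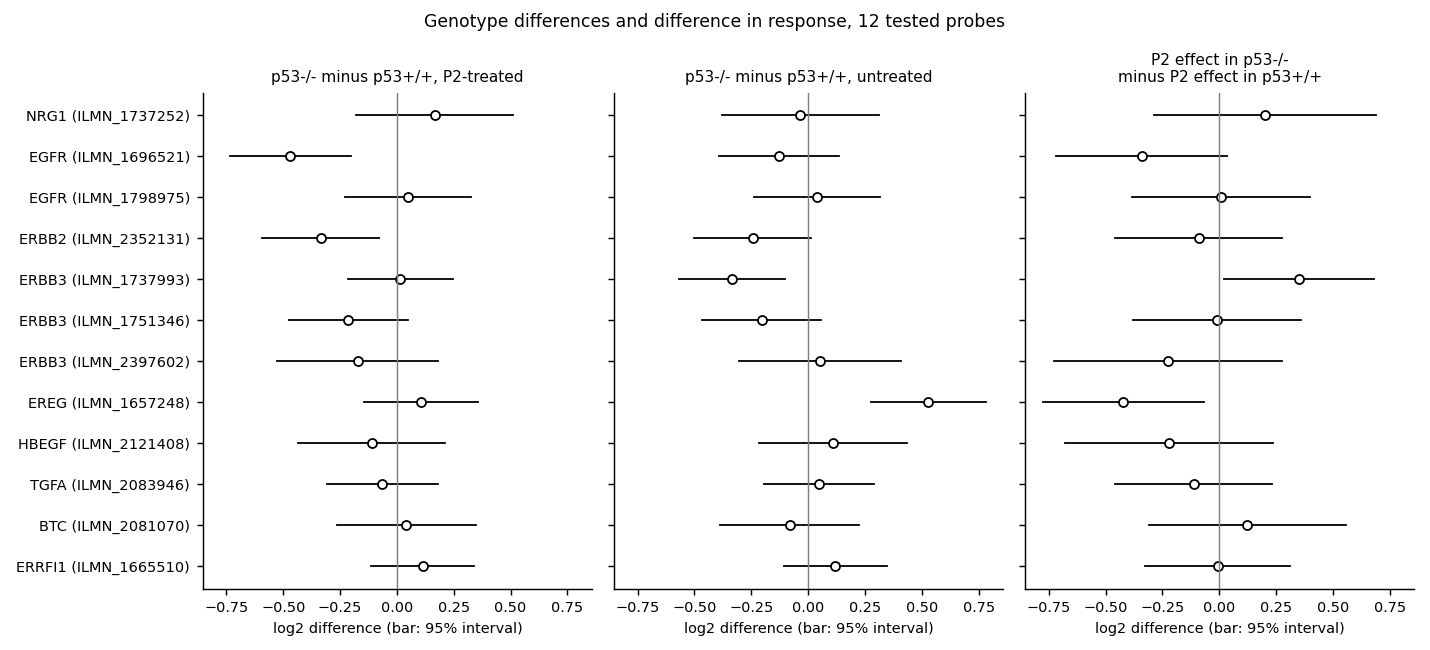
Log2 difference (horizontal axis) with its 95% interval for the 12 tested probes, for p53-/- minus p53+/+ among P2-treated cells (left), among untreated cells (middle), and for the difference in response between the genotypes (right). Open circles mark that no probe had an adjusted p under 0.05, and EREG among untreated cells lies at 0.53 log2.

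The other genes of the pathway were taken from 5 lists of 79 genes, of which 71 had a probe and 61 were tested, each by its brightest probe. In p53-/- cells 5 rose (8.2%) and 13 fell (21.3%), where 10.4% of all genes read in this way were called higher and 14.5% lower. In p53+/+ cells 3 rose (4.92%) and 8 fell (13.1%), where 5.82% of all genes were called higher and 6.85% lower. The median difference of the 61 genes was -0.23 log2 in p53-/- and -0.14 log2 in p53+/+ cells, against -0.059 and -0.018 log2 over all genes. None of the 61 was called between genotypes or for the difference in response. The lists were also drawn up with earlier results known.

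**Figure D4:**
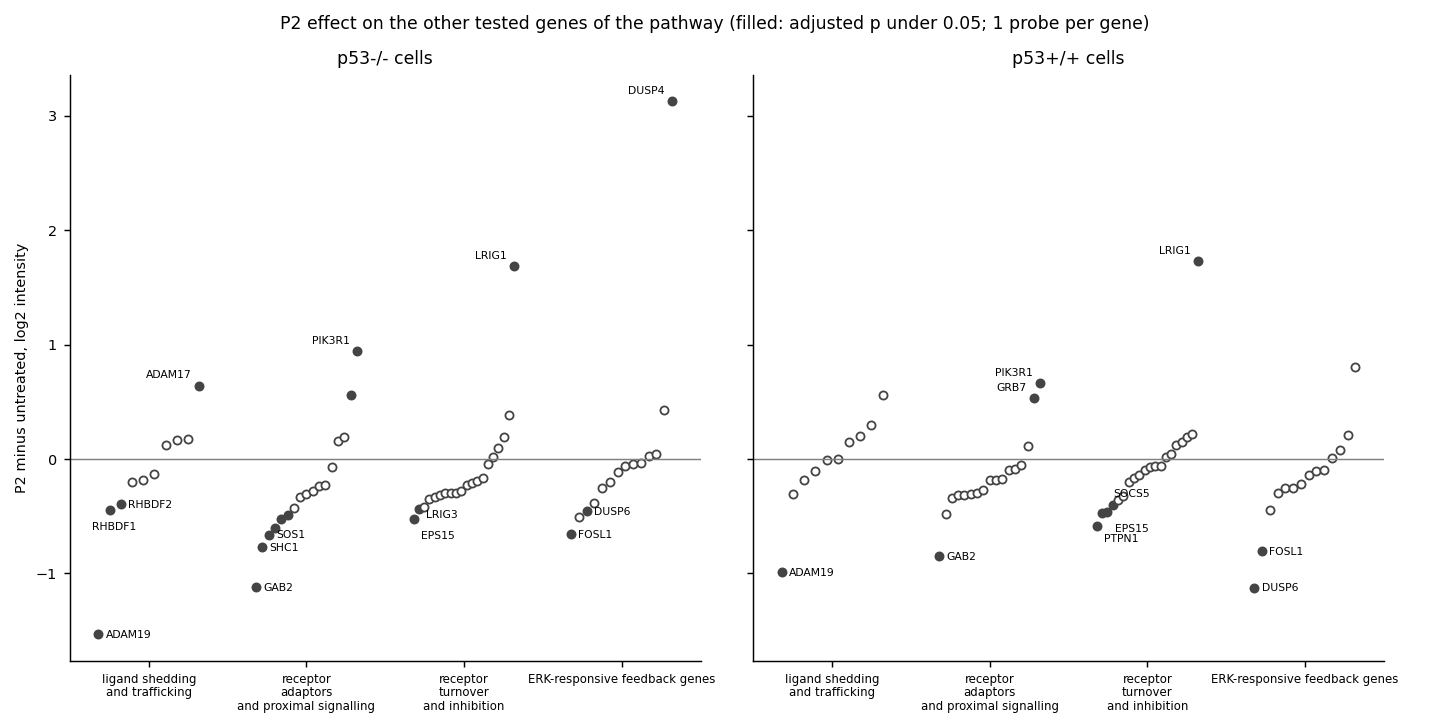
P2 minus untreated in log2 intensity (vertical axis) for each tested gene of 4 pathway lists (horizontal axis, genes ordered by size within a list), in p53-/- cells (left) and p53+/+ cells (right). Filled points have an adjusted p under 0.05, and LRIG1 stands above its list in both genotypes, at 1.68 and 1.73 log2.

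Ligand shedding and trafficking held 10 tested genes. In p53-/- cells 1 rose (10%) and 3 fell (30%), where 10.4% of all genes were called higher and 14.5% lower. In p53+/+ cells 0 rose and 1 fell (10%), where 5.82% of all genes were called higher and 6.85% lower. ADAM19, a metalloprotease known from mouse cells to cleave neuregulin precursors, read 9.91 and 10.08 log2 in P2-treated p53-/- cells, against 11.57 and 11.48 in untreated p53-/- cells. In p53+/+ cells ADAM19 read 10.35 and 10.36 log2 with P2, against 11.41 and 11.28 without. It fell by 1.53 ± 0.11 log2 in p53-/- cells (2.89-fold, adjusted p = 5.41e-05, limma) and by 0.99 ± 0.11 log2 in p53+/+ cells (1.99-fold, adjusted p = 0.000775). ADAM17, the main sheddase of TGFA and HBEGF, rose by 0.64 ± 0.12 log2 in p53-/- cells (adjusted p = 0.00553 by limma) and differed by 0.15 log2 in p53+/+ cells (adjusted p = 0.473). RHBDF1 and RHBDF2, inactive rhomboid proteins that carry ADAM17 to the surface, fell by 0.44 and 0.40 log2 in p53-/- cells (adjusted p = 0.0287 and 0.0352). Of the other RHBDF2 probes, ILMN_2373062 fell there by 0.41 log2 (adjusted p = 0.043) and ILMN_1735792 differed by 0.25 log2 (adjusted p = 0.226). In p53+/+ cells RHBDF1 differed by 0.0008 log2 (adjusted p = 0.998, limma) and RHBDF2 by 0.30 log2 (adjusted p = 0.136). ILMN_2373062 and ILMN_1735792 differed in p53+/+ cells by 0.13 and -0.37 log2 (adjusted p = 0.565 and 0.122). The RHBDF1 call was lost without either p53-/- P2 array or p53-/- untreated replicate 1 (adjusted p of 0.106 to 0.164). The RHBDF2 call was lost without those 3 arrays or either p53+/+ untreated array (adjusted p of 0.0553 to 0.167).

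Receptor adaptors and proximal signalling held 17 tested genes. In p53-/- cells 2 rose (11.8%) and 6 fell (35.3%), where 10.4% of all genes were called higher and 14.5% lower. In p53+/+ cells 2 rose (11.8%) and 1 fell (5.88%), where 5.82% of all genes were called higher and 6.85% lower. GAB2, a docking protein that recruits PI3K, read 5.56 and 5.61 log2 in P2-treated p53-/- cells, against 6.79 and 6.61 in untreated p53-/- cells. In p53+/+ cells GAB2 read 5.54 and 5.38 log2 with P2, against 6.24 and 6.38 without. It fell by 1.12 ± 0.12 log2 (adjusted p = 0.000404, limma) in p53-/- cells and by 0.85 ± 0.12 log2 (adjusted p = 0.00223) in p53+/+ cells. PIK3R1, a regulatory subunit of PI3K, rose by 0.95 ± 0.12 log2 (adjusted p = 0.00119) in p53-/- cells and by 0.66 ± 0.12 log2 (adjusted p = 0.0099) in p53+/+ cells. A dimmer PIK3R1 probe differed by -0.07 and 0.03 log2.

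In p53-/- cells SHC1, an adaptor of activated receptors, fell by 0.77 log2 (adjusted p = 0.00642, limma) and SOS1, a RAS exchange factor, fell by 0.66 log2 (adjusted p = 0.0277). Their p53+/+ differences were -0.48 log2 for SHC1 (adjusted p = 0.0671) and -0.10 log2 for SOS1 (adjusted p = 0.776). SHC1 was called lower in p53+/+ cells under 11 of 19 alternatives (adjusted p down to 0.0213), among them without p53-/- untreated replicate 1 (0.0354) or 2 (0.0377). A dimmer SHC1 probe, which also belongs to the 215 probes with low readings on p53-/- untreated replicate 1, differed by 1.10 log2 in p53-/- cells (adjusted p = 0.0688). GRB7, an adaptor whose gene lies beside ERBB2, rose by 0.56 log2 in p53-/- cells (adjusted p = 0.0146 by limma) and by 0.53 log2 in p53+/+ cells (adjusted p = 0.0312). Of the dimmer GRB7 probes, ILMN_1740762 rose by 0.43 log2 in p53-/- cells (adjusted p = 0.044, limma) and differed by 0.32 log2 in p53+/+ cells (adjusted p = 0.159). The GRB7 probe ILMN_1798582, detected on no untreated p53-/- array, was at least 1.30-fold higher with P2 in p53-/- cells (adjusted p = 0.01) and differed by 0.30 log2 in p53+/+ cells (adjusted p = 0.314). The SHC1 call was lost without p53-/- P2 replicate 2 (adjusted p = 0.0504), and the SOS1 call without p53-/- P2 replicate 1 or p53-/- untreated replicate 1 (0.134 to 0.185). The PIK3R1 call in p53+/+ cells was lost without p53+/+ P2 replicate 1 or p53+/+ untreated replicate 2 (0.0734 to 0.081). The GRB7 call was lost in p53-/- cells without p53-/- P2 replicate 1 or p53-/- untreated replicate 2 (0.0553 to 0.102), and in p53+/+ cells when any 1 of the 4 arrays of p53+/+ cells was left out (0.0836 to 0.169).

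Receptor turnover and inhibition held 20 tested genes. In p53-/- cells 1 rose (5%) and 2 fell (10%), where 10.4% of all genes were called higher and 14.5% lower. In p53+/+ cells 1 rose (5%) and 4 fell (20%), where 5.82% of all genes were called higher and 6.85% lower. LRIG1, a membrane protein that promotes the breakdown of ERBB receptors, read 6.83 and 6.99 log2 in P2-treated p53-/- cells, against 5.53 and 4.92 in untreated p53-/- cells. In p53+/+ cells LRIG1 read 6.63 and 6.85 log2 with P2, against 5.10 and 4.92 without. It rose by 1.68 ± 0.19 log2 (3.21-fold, adjusted p = 0.000588, limma) in p53-/- cells and by 1.73 ± 0.19 log2 (3.32-fold, adjusted p = 0.000667) in p53+/+ cells. LRIG3, its relative, fell by 0.44 log2 in p53-/- cells (adjusted p = 0.0373), a call lost when any 1 of the 4 arrays of p53-/- cells was left out (0.0502 to 0.153).

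EPS15, an endocytic adaptor, fell by 0.52 log2 in p53-/- cells (adjusted p = 0.0105, limma) and by 0.47 log2 in p53+/+ cells (adjusted p = 0.029). In p53+/+ cells the phosphatase gene PTPN1 fell by 0.58 log2 (adjusted p = 0.0247) and SOCS5, a suppressor of cytokine signalling, fell by 0.47 log2 (adjusted p = 0.0277). Their p53-/- differences were -0.29 log2 for PTPN1 (adjusted p = 0.141) and -0.33 log2 for SOCS5 (adjusted p = 0.0585, or 0.0339 without p53-/- untreated replicate 2). The p53+/+ calls of EPS15 (0.0665 to 0.162) and SOCS5 (0.0913 to 0.141) were lost when any 1 of the 4 arrays of p53+/+ cells was left out. That of PTPN1 was lost without either p53+/+ P2 array or p53+/+ untreated replicate 1 (0.0642 to 0.156). The p53-/- call of EPS15 was lost without p53-/- P2 replicate 2 or p53-/- untreated replicate 1 (0.0562 to 0.0568).

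ERK-responsive feedback genes, which are transcribed when RAS-ERK signalling is active, held 14 tested members. In p53-/- cells 1 rose (7.14%) and 2 fell (14.3%), where 10.4% of all genes were called higher and 14.5% lower. In p53+/+ cells 0 rose and 2 fell (14.3%), where 5.82% of all genes were called higher and 6.85% lower. DUSP6, an ERK phosphatase, read 9.76 and 9.49 log2 in P2-treated p53-/- cells, against 9.95 and 10.20 in untreated p53-/- cells. In p53+/+ cells DUSP6 read 8.92 and 8.83 log2 with P2, against 9.95 and 10.05 without. It fell by 0.45 ± 0.13 log2 in p53-/- cells (adjusted p = 0.0356, limma) and by 1.12 ± 0.13 log2 in p53+/+ cells (adjusted p = 0.00106). The difference in DUSP6 response of 0.67 ± 0.19 log2 did not pass the test (adjusted p = 0.154). A dimmer DUSP6 probe fell by 0.65 and 0.98 log2 (adjusted p = 0.0322 and 0.0109). FOSL1, an AP-1 transcription factor, fell by 0.66 log2 in p53-/- cells (adjusted p = 0.00771 by limma) and by 0.80 log2 in p53+/+ cells (adjusted p = 0.00539).

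The DUSP6 call in p53-/- cells was lost without p53-/- P2 replicate 2, p53-/- untreated replicate 2 or any 1 of the 4 arrays of p53+/+ cells (adjusted p of 0.0517 to 0.19). The FOSL1 call was lost in p53-/- cells without p53-/- P2 replicate 2 (0.0559), and in p53+/+ cells without p53+/+ P2 replicate 2 or p53+/+ untreated replicate 2 (0.0508 to 0.0512). DUSP4, another ERK phosphatase, had 1 tested probe, which belongs to the 215 probes with low readings on p53-/- untreated replicate 1. It read 8.97 and 8.22 log2 in P2-treated p53-/- cells, against 4.47 and 6.47 in untreated p53-/- cells. In p53+/+ cells DUSP4 read 8.98 and 8.37 log2 with P2, against 7.87 and 7.87 without. DUSP4 rose by 3.13 ± 0.53 log2 in p53-/- cells (adjusted p = 0.00377, limma), and by 2.10 log2 without p53-/- untreated replicate 1 (adjusted p = 0.0014). In p53+/+ cells DUSP4 differed by 0.80 log2 (adjusted p = 0.367). It was called higher there under 3 of 18 alternatives, which were a fit of the p53+/+ groups alone (adjusted p = 0.0182) and leaving out p53-/- untreated replicate 1 (0.79 log2, adjusted p = 0.0458) or 2 (0.80 log2, adjusted p = 0.0486).

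NRG1's pattern over the 8 arrays was compared with 702 tested probes of other genes whose SD was at least 0.5 log2. The most similar 5 genes, each by 1 probe, were FRMD5 (Pearson r = 0.999), TM4SF18 (r = 0.997), GLIS3 (r = 0.996), SLC2A3 (r = 0.995) and BMP4 (r = 0.994). The 8 arrays fall into a treated and an untreated cluster, so these values mostly rank how cleanly a gene followed the treatment, and no p is given. FRMD5, a FERM domain protein, differed by -1.11 log2 with P2 in p53-/- and -1.26 log2 in p53+/+ cells, against -2.79 and -2.99 log2 for NRG1. TM4SF18, a membrane protein, differed by -4.41 log2 in p53-/- cells (21.2-fold lower), and was at least 25.6-fold lower in p53+/+ cells, where neither P2-treated array detected it. GLIS3, a zinc finger transcription factor, was detected on none of the P2-treated arrays and was at least 4.24-fold lower in p53-/- and at least 3.78-fold lower in p53+/+ cells. SLC2A3, a glucose transporter, differed by -2.26 and -2.25 log2, and BMP4, a secreted morphogen, by -1.83 and -1.99 log2. Without p53-/- untreated replicate 1 each r with NRG1 was at least 0.994.

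**Figure D5:**
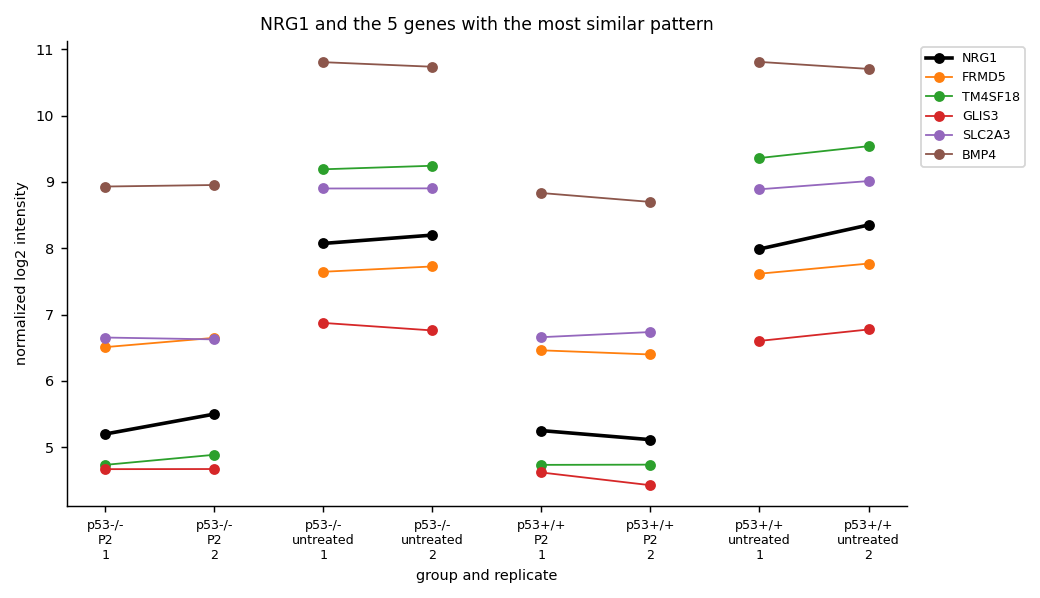
Normalized log2 intensity (vertical axis) on each of the 8 arrays (horizontal axis, by group and replicate) for NRG1 (black) and the 5 genes with the highest correlation with it, with lines joining the 2 replicates of a group. Within each gene the 4 P2-treated arrays lie below the 4 untreated ones.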

How the data were processed

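Total RNA was turned into biotin-labelled cRNA for Illumina chips, per the labels' protocols. The deposited table holds a raw intensity per probe and array, and a detection p-value for each. The authors also deposited log2 values, which equalled quantile-normalized log2 intensities (largest difference 5.0e-09). The submitters' processing notes name GenomeStudio. A genome build is not given in the sources used here.

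Probes were named through GEO's platform annotation, where 21834 of 24526 had 1 gene symbol, 2692 had none and 0 had several. Here intensities were background-corrected with limma 3.58.1 in R 4.3.3 (normexp from detection p-values, offset 16), log2-transformed and quantile-normalized. The test took the 14574 probes that 2 or more arrays detected with p under 0.05, with 1 mean per group over all 8 arrays (4 residual and 5.15 prior degrees of freedom). Contrasts (5) compared P2 with untreated cells in each genotype, took the difference of these effects, and set p53-/- against p53+/+ in treated and in untreated cells. Tests were two-sided, with a threshold of 0.05 on the Benjamini-Hochberg adjusted p over all tested probes. NRG1's P2 effects have no test. A fold against a group with no detected array is given as "at least". The number of arrays limits the precision, and the replicates of a group correlated with r of 0.989 to 0.995.

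The members and lists were chosen with earlier results of these data known. Named were all members, the other receptor and ligands, up to 4 called genes with the largest change in each other pathway list and P2 contrast, and the 5 genes most like NRG1. Alternatives were an offset of 50, no background correction, cyclic loess, median scaling, the authors' log2 values, no filter, a stricter filter (detection p under 0.01, all 8 arrays), a variance trend with robust moderation, array weights, only the groups compared, the replicate number as a block, and each array left out. The scripts were tested on simulated data. Promoters came from RefSeq (GRCh38.p14). Plots used matplotlib 3.10.9 in Python 3.11.15.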

Additional observations from a re-analysis of the deposited data

How the results depend on the processing

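Over the members' probes and all 5 comparisons, 60 results were recomputed under up to 19 alternatives each, which gave 1103 values. Of these, 42 lost a call, 7 gained one and 0 called values changed sign, while 43 values that were called in neither setting had the other sign. Of the 11 member probes other than NRG1, 6 were called with P2 in p53-/- cells. Under the stricter filter (detection p under 0.01, all 8 arrays), which leaves out dim probes, 3 were called (1 higher, 2 lower). Over all tested probes the calls were 2931 of 9198 under that filter, against 3706 of 14574 in the main fit. In p53+/+ cells 5 were called, and 3 with median scaling (1 higher, 2 lower) or with no filter (2 higher, 1 lower). Over all tested probes the calls there were 1013 of 14574 with median scaling and 1747 of 24526 with no filter, against 1749 of 14574. The number that differed between untreated genotypes was 0. It was 1 (EREG) without background correction, with the authors' log2 values, with that stricter filter and when a variance trend with robust moderation was used. Over all tested probes these alternatives called 335, 335, 187 (of 9198) and 255 between untreated genotypes, against 10 in the main fit. Leaving out 1 array gave 3 to 5 called with P2 in p53-/- cells (3 without either p53-/- P2 array), while the calls over all tested probes were 1544 to 3880, against 3706 with all arrays. In p53+/+ cells it gave 2 to 5 (2 without p53+/+ P2 replicate 2 or p53+/+ untreated replicate 2, 3 without either p53-/- P2 array, p53+/+ P2 replicate 1 or p53+/+ untreated replicate 1), with 588 to 2302 calls over all tested probes, against 1749. Without p53-/- untreated replicate 2 the EREG difference between untreated genotypes was 0.57 log2, against 0.53 log2 with all arrays. The other pathway genes, recomputed under alternatives chosen after the data were seen, gave 10 to 17 calls in p53-/- cells (18 with all arrays, 11 and 10 without p53-/- P2 replicate 1 and 2). In p53+/+ cells they gave 5 to 13 (11 with all arrays, 5 or 6 without any 1 p53+/+ array). Of 25 calls of named pathway genes, 10 were kept under every alternative run for the probe. They were those of ADAM19, GAB2 and LRIG1 in both genotypes, ADAM17, PIK3R1 and DUSP4 in p53-/- cells and DUSP6 in p53+/+ cells. The stricter filter left out the probes of GAB2, LRIG1 and DUSP4, so their calls were not recomputed under it. Median scaling moved the median of all tested probes to -0.12 log2 in p53-/- and -0.11 log2 in p53+/+ cells. It lost the p53-/- calls of the truncated EGFR probe (adjusted p = 0.174) and full-length ERBB3 (0.244), and the p53+/+ calls of EREG (0.294) and BTC (0.153), with each direction kept. The deviations of same-numbered replicates had correlations of -0.19 to 0.20 over 6 pairs of groups. Pairs with untreated p53-/- cells were negative (-0.15, -0.17 and -0.19), and the other pairs were positive (0.20, 0.10 and 0.18). With the replicate number as a block, 5 of these 11 member probes were called in p53-/- and 4 in p53+/+ cells (3524 and 1498 of all tested probes), and the calls of full-length ERBB3 in p53-/- (adjusted p = 0.0643) and of HBEGF in p53+/+ cells (0.0591) were lost. Low signal over background limits BTC, the truncated EGFR probe, NRG1, TM4SF18 and GLIS3 in treated cells and LRIG1 in untreated cells, among others. Otherwise the cause of a changed call was not tested.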
